A study of Danio rerio with 12 samples.

Results

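Transcripts of 22 extracellular matrix and matrix adhesion genes were measured in whole zebrafish larvae raised in the herbicide atrazine. The genes were chosen by name: their symbol in the platform annotation begins like that of a collagen, laminin, integrin subunit, matrix metalloproteinase, fibulin, matrilin, link protein, glypican, syndecan or another matrix family in the rule. They were 22 of 2650 genes with a symbol and of 37144 units (genes and targets unnamed here) on the array. By role they comprised 10 integrin subunits, 2 laminin chains, 2 collagens, 2 matrilin and link protein genes, 1 fibulin, 3 genes named after glypicans or syndecans and 2 metalloproteinases. The name rule did not require a matrix protein. One of the 3 genes, sdcbp, encodes syntenin, an adaptor inside the cell that binds the tails of syndecans.

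All larvae were of the wild-type AB strain with no other genotype named. Pools of 50 were exposed from about 1 to 72 hours after fertilization and collected at 72 hours. Atrazine was given at 0.3, at 3 or at 30 ppb, with unexposed larvae (0 ppb) as controls. There were 3 pools per dose and 1 Cy3-labelled NimbleGen array per pool. The labels call the pools biological replicates but do not name the clutches, and a p-value here reflects no more than how far these pools lay apart, which may be technical. Whether the 0 ppb group received a carrier solvent is not given in the sources used here.

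Cells in a tissue rest on and within a secreted matrix. Laminins and other proteins form the basement membrane, the sheet under epithelia and around muscle and notochord, while collagens and matrilins build the notochord sheath, cartilage and connective tissue. Integrins are paired alpha and beta subunits that hold cells to these proteins, syndecans and glypicans carry heparan sulfate at the cell surface, and metalloproteinases cut matrix proteins. In the larva these genes are active in the epidermis, notochord, fins, muscle boundaries, vessels and early cartilage.

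The 22 genes were read by 263 features, 12 each for 21 genes and 11 for gpc1b. Levels are means of log2 intensity over a gene's features, and differences are fitted log2 differences from 0 ppb with standard error (SE) or 95% confidence interval. The fit was limma over all 12 arrays, with p-values adjusted over all 37144 units and a threshold of 0.05. Mean levels ran from 6.19 for itga2b, brighter than 11.6% of units, to 13.51 for sdc4, brighter than 98.6%. Brightness also depends on probe sequence, so it gives no order of abundance between genes. The within-dose SD had a median of 0.20 over the 22 genes, with a range of 0.08 to 0.37, against 0.22 over all units.

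No gene of the set passed the threshold at any dose. At 1 dose or more, the treated pools of 8 genes did not overlap the control pools. The share of all units over the doses together was not counted, so shares are given by dose and direction. Below control lay the integrin genes itga6b, itgb3a and itgav at 0.3 ppb only and the integrin gene itgb4 at 0.3 and 3 ppb. At 3 ppb only, the integrin gene itgb1b.1, the laminin gene lama1 and the collagen gene col19a1 lay below. The metalloproteinase gene mmp23bb lay above at 3 ppb. At 0.3 ppb, 4 of the 22 genes (18.2%) had all treated pools below all control pools, where 2.99% of all units and 2.94% of genes with a symbol did, and 0 genes had them above (2.09% and 2.75%). At 3 ppb 4 genes (18.2%) lay below without overlap, against 3.88% of all units and 4.91% of genes with a symbol, and 1 lay above (3.52% and 2.94%). At 30 ppb 0 lay below (3.13% and 4.72%) and 0 above (3.4% and 2.04%). With array quality weights in the fit, 3 genes of the set (13.6%) passed at 3 ppb, namely lama1, itgb4 and col27a1b. In the same fit 1193 of all units (3.21%) passed. These weights let 1 pool dominate 3 ppb, with 9.92 for replicate 3 against 0.285 and 1.04 for replicates 1 and 2. The fit of the weights also gave a convergence warning. No other setting tried called a gene of the set at a dose. In bulk RNA of whole larvae, fewer cells of a type and less RNA per cell cannot be told apart.

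**Figure D1:**
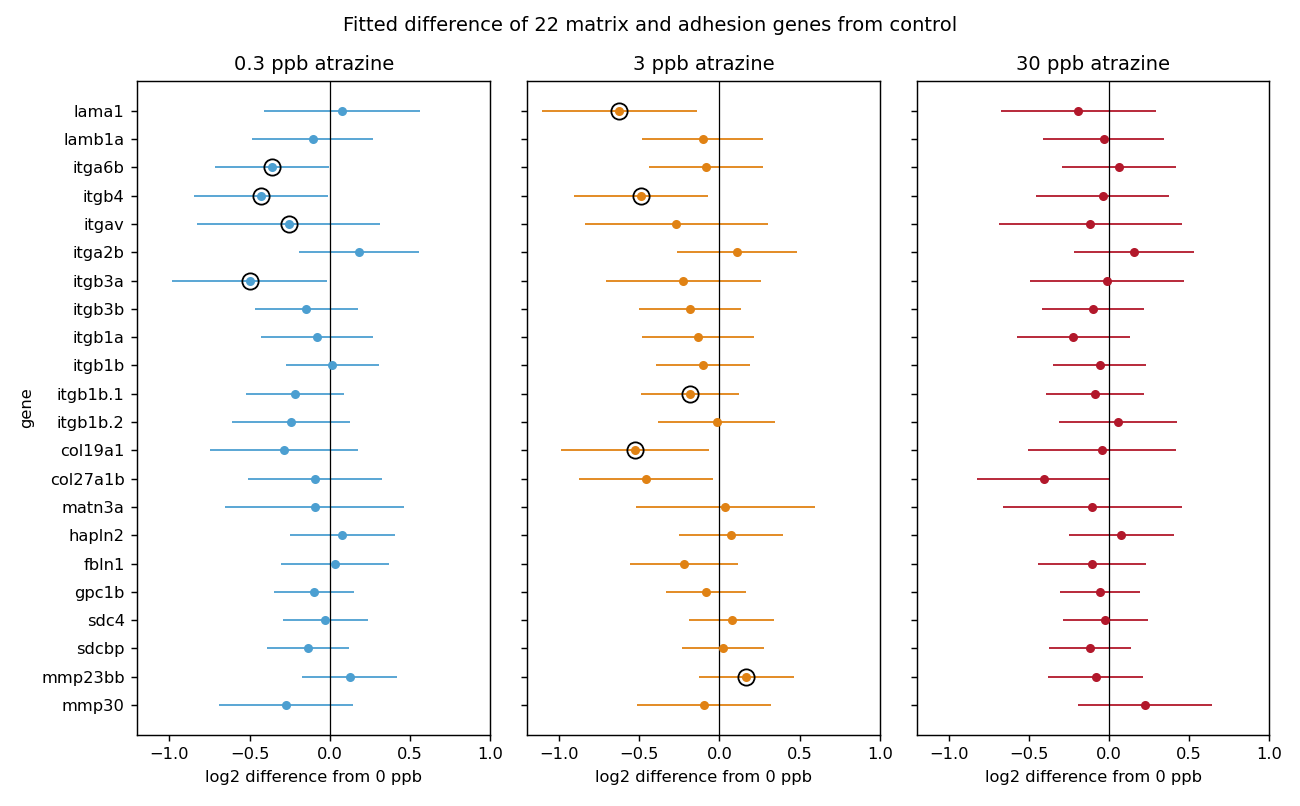
Fitted log2 difference from 0 ppb (x axis) of the 22 genes (y axis, by role) at 0.3, 3 and 30 ppb atrazine. Points are estimates, bars are 95% confidence intervals over 3 pools per dose, and black rings mark genes whose treated pools do not overlap the control pools. Rings stand at 4 genes below control at 0.3 ppb, at 4 below and 1 above at 3 ppb and at 0 at 30 ppb.

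The integrin of hemidesmosomes, the junctions that fix basal epidermal cells to the basement membrane, consists of alpha 6 and beta 4. For itgb4, which encodes the beta 4 subunit, control pools lay close together at 11.64, 11.62 and 11.59. The pools stood at 11.20, 11.03 and 11.34 at 0.3 ppb and at 10.93, 11.35 and 11.11 at 3 ppb. Every pool at these doses was below every control pool. At 30 ppb the pools were at 11.17, 11.54 and 12.01, spread over both sides of the controls. The differences were -0.43 at 0.3 ppb (95% interval -0.85 to -0.01, unadjusted p = 0.0449, limma adjusted p = 1.00), -0.49 at 3 ppb (-0.91 to -0.07, unadjusted p = 0.0254, adjusted p = 1.00) and -0.04 at 30 ppb (-0.46 to 0.38). All 12 features were lower at 0.3 ppb and all 12 at 3 ppb, against 4 of 12 at 30 ppb. The feature numbered 3266 read 7.82 in 3 ppb replicate 1, against a median of 11.04 over the 12 arrays. Without this feature the 3 ppb difference was -0.44. Features of 1 gene read the same labelled RNA and are not replicates.

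Its partner itga6b, the alpha 6 subunit gene, was at 11.14, 11.12 and 10.96 in the control pools. At 0.3 ppb the pools read 10.87, 10.45 and 10.81, all below control, and all 12 features were lower. The difference was -0.36 (95% interval -0.71 to -0.01, unadjusted p = 0.0473, adjusted p = 1.00). Unlike itgb4, its pools overlapped the controls at 3 ppb, with 10.75, 11.14 and 11.07 (difference -0.08, SE 0.16), and at 30 ppb, with 10.88, 11.26 and 11.25 (0.06, SE 0.16). The single epidermal marker measured, agr1, differed by -0.05 (SE 0.12), -0.02 and 0.10 at the rising doses. The part of epidermal RNA in the values of itgb4 and itga6b was not tested.

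Integrin beta 3 pairs with alpha v, in a receptor for vitronectin and fibronectin, or with alpha IIb, in the fibrinogen receptor of thrombocytes. The beta 3a gene itgb3a had control pools at 7.78, 8.18 and 7.87 and pools at 7.69, 7.24 and 7.41 at 0.3 ppb. All treated pools were lower there, and the group mean was lower in 11 of 12 features. The difference was the farthest from 0 in the set at that dose, at -0.50 (95% interval -0.98 to -0.02, unadjusted p = 0.0433, adjusted p = 1.00). The pools overlapped control at 3 ppb (8.12, 7.63 and 7.41) and at 30 ppb (7.53, 8.25 and 8.02), with differences of -0.23 and -0.01 (SE 0.22 for each).

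The alpha v gene itgav was the fourth whose pools lay apart at 0.3 ppb. Its controls stood at 11.95, 12.44 and 12.01 and the treated pools at 11.91, 11.84 and 11.88. The gap between the groups was narrow, and the spread of the gene over all pools was large, so the difference of -0.26 (95% interval -0.83 to 0.31) had an unadjusted p of 0.347. At 30 ppb its pools ran from 11.30 to 12.52, the widest range of any member at 1.22 log2 units over the 12 arrays. The alpha IIb gene itga2b was higher at each dose, by 0.18, 0.11 and 0.15 (SE 0.17 for each), with overlapping pools and a dim signal. For itgb3b, the other beta 3 gene, the differences were -0.15, -0.18 and -0.10 (SE 0.15 for each). None of the 3 genes had an unadjusted p under 0.05 at any dose.

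Integrin beta 1, the partner of most alpha subunits, is represented by 4 genes. Of these, itgb1b, itgb1b.1 and itgb1b.2 lie next to each other in the gene order of RefSeq's GRCz12tu table, and whether the features of one also bind the others was not tested. At 3 ppb the pools of itgb1b.1 (12.32, 12.42 and 12.23) lay just below its control pools (12.49, 12.60 and 12.44), a difference of -0.18 (SE 0.14, unadjusted p = 0.218), with -0.22 at 0.3 ppb and -0.09 at 30 ppb. For itgb1b the differences were 0.02, -0.10 and -0.06, and for itgb1b.2 -0.24, -0.02 and 0.06, with overlap at every dose. The gene on another chromosome, itgb1a, differed from control by -0.08, -0.13 and -0.22 at the rising doses (SE 0.16 for each). Its 30 ppb value rested on replicate 1. That pool read 11.09, whereas replicates 2 and 3 at 11.65 and 11.64 lay within the control range of 11.61 to 11.73.

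Over the 10 integrin subunits, 8 were lower than control at 0.3 ppb, 9 at 3 ppb and 7 at 30 ppb. Of all units, 49.3%, 52.8% and 55.3% were lower at these doses, and of genes with a symbol 47.2%, 53.4% and 62.2%. The median differences of the subunits were -0.23, -0.16 and -0.05, against medians over all units of 0.00, -0.01 and -0.02. Over genes with a symbol the medians were 0.01, -0.01 and -0.04, so at 30 ppb the subunits lay near them. The subunits share the same 3 control pools in all 3 comparisons, so these counts are not independent of each other. Of 4 skeletal muscle markers, mybpc1 at 0.3 ppb (-0.48) and mybpc2b at 3 ppb (-0.31) also lay below control without overlap. Of all units, 2.99% and 3.88% did so at these doses. The markers acta1b and mylpfb overlapped control at each dose. The relation of these markers to the integrin values was not tested.

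**Figure D2:**
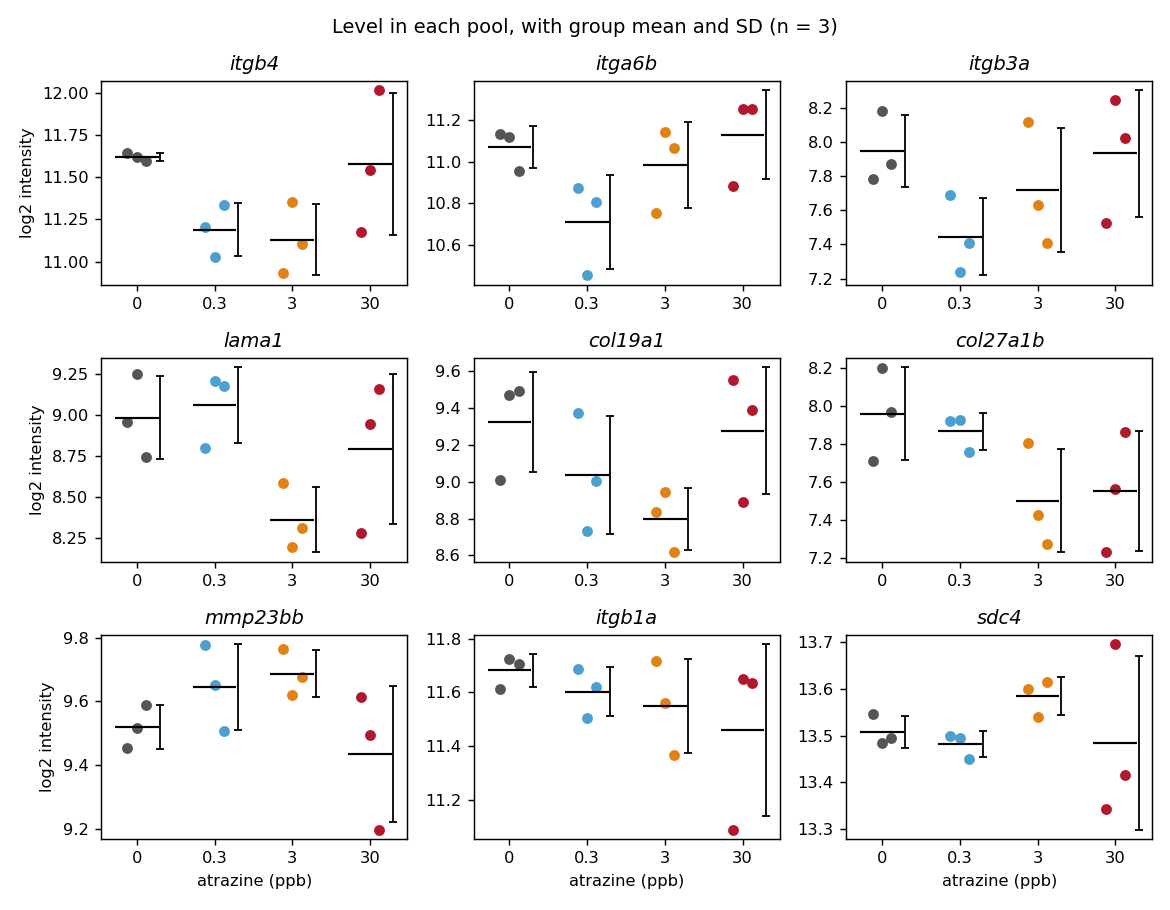
Log2 intensity (y axis) of 9 members in each of 12 pools by atrazine dose (x axis, ppb), with the group mean as a line and the SD as a bar (n = 3). For itgb4 the 6 pools at 0.3 and 3 ppb lie below the controls at 11.59 to 11.64, and for lama1 the 3 ppb pools lie at 8.19 to 8.58, below all 0 and 0.3 ppb pools.

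The laminin of alpha 1, beta 1 and gamma 1 chains, an early basement membrane laminin, draws its alpha 1 chain from lama1 and its beta 1 chain from genes such as lamb1a. Zebrafish without either chain have notochord defects. For lama1 the control pools stood at 8.96, 9.25 and 8.74, and the 0.3 ppb pools at 8.79, 9.21 and 9.18 overlapped them. At 3 ppb the pools were at 8.58, 8.19 and 8.31, below every pool of both lower doses. This was the difference farthest from 0 in the set, at -0.62 or 0.65-fold (95% interval -1.11 to -0.14, unadjusted p = 0.0157, limma adjusted p = 1.00), and all 12 features were lower. At 30 ppb replicate 1 read 8.28, like the 3 ppb pools, while replicates 2 and 3 at 8.94 and 9.15 lay within the control range (difference -0.19, SE 0.22). Against 0.3 ppb the 3 ppb difference was -0.70 (SE 0.22, unadjusted p = 0.00817, adjusted p = 1.00).

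The beta 1 chain gene lamb1a did not show this step. Its pools at 3 ppb (11.84, 12.06 and 11.90) overlapped control (12.17, 12.11 and 11.83), and the differences were -0.11, -0.10 and -0.03 at the rising doses (SE 0.17 for each).

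Of the collagens, col19a1 encodes a non-fibrillar collagen known in zebrafish for guiding motor axons. Control pools were at 9.01, 9.47 and 9.49, and the 3 ppb pools at 8.84, 8.95 and 8.62 all lay below (difference -0.53, 95% interval -0.99 to -0.06, unadjusted p = 0.0288, adjusted p = 1.00). The group mean was lower in 12 of 12 features. The 0.3 ppb pools, at 9.38, 8.73 and 9.01, overlapped control (difference -0.29, SE 0.21), also with 12 of 12 features lower. At 30 ppb the pools read 9.55, 8.89 and 9.39, a difference of only -0.05, yet 10 of 12 features were lower. The feature numbered 1078 read 15.15 on the array of 30 ppb replicate 1 and between 5.83 and 8.01 on the other 11 arrays. Without it the pools at 30 ppb were at 9.04, 9.07 and 9.64, and the differences became -0.30, -0.49 and -0.27 at the rising doses (SE 0.20 for each). The unadjusted p at 3 ppb was then 0.0295 and the pools still did not overlap control.

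The fibrillar collagen gene col27a1b, known in zebrafish for the notochord sheath and the forming vertebrae, was the member with the lowest p for a slope over the ordered doses. Its pools stood at 7.71, 8.20 and 7.97 in control and at 7.92, 7.93 and 7.76 at 0.3 ppb. They stood at 7.80, 7.43 and 7.27 at 3 ppb and at 7.23, 7.56 and 7.86 at 30 ppb. Most pools of the 2 higher doses lay below control, but each of these groups overlapped it. The slope was -0.16 per dose step (SE 0.06, unadjusted p = 0.0173, limma adjusted p = 0.921). At 3 ppb the difference was -0.46 (SE 0.19, unadjusted p = 0.0336), with all 12 features lower, and at 30 ppb it was -0.41 (SE 0.19, unadjusted p = 0.054), with 9 of 12 lower.

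**Figure D3:**
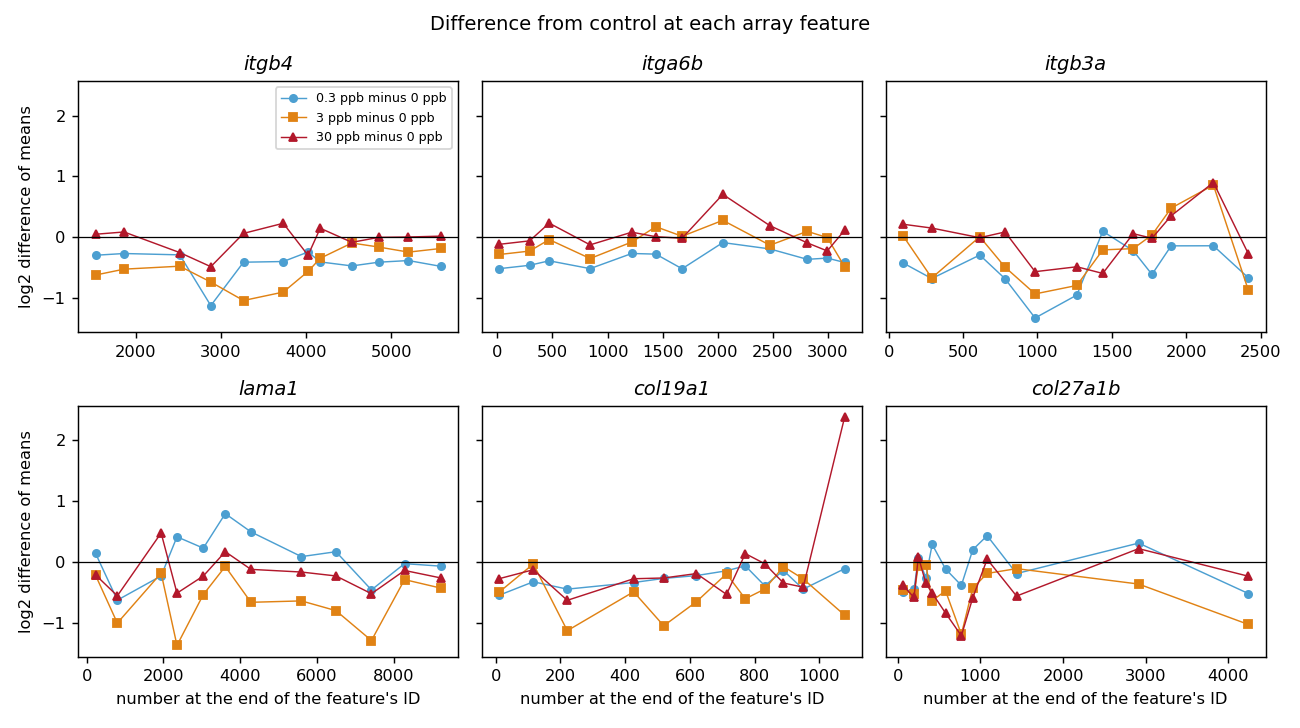
Difference of group means from 0 ppb in log2 units (y axis) at each feature of 6 genes, ordered by the number at the end of the feature's ID (x axis); colours and symbols give the dose. For itgb4 all 12 features lie below 0 at 0.3 and 3 ppb, and for col19a1 the feature numbered 1078 stands at 2.38 at 30 ppb while 10 of the other 11 lie below 0.

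The cartilage matrix gene matn3a, which encodes matrilin 3, varied most within doses after itgav, with an SD of 0.36. One of its features, numbered 1186, had a median of 11.39 over the 12 arrays. It read 8.81 in control replicate 3, 9.19 and 9.36 in 0.3 ppb replicates 1 and 3 and 9.10 in 3 ppb replicate 1. The part of this feature in the spread was not tested. The differences of matn3a, at -0.10, 0.04 and -0.10 (SE 0.26 for each), were small beside this spread. Between doses lay 4.1% of its variance. The link protein gene hapln2, whose product in mammals ties hyaluronan to proteoglycans in the brain, differed by 0.08, 0.07 and 0.08 (SE 0.15 for each). The fibulin gene fbln1, whose product lies in basement membranes and elastic fibres, differed by 0.03, -0.22 and -0.11 (SE 0.15 for each). All 3 genes had overlapping pools at every dose.

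Among the genes named after glypicans and syndecans the within-dose SD was low, at 0.08 for gpc1b, 0.10 for sdc4 and 0.09 for sdcbp. Single doses spread more, with an SD of 0.19 for sdc4 at 30 ppb and of 0.14 for sdcbp in control. The brightest member, sdc4, encodes syndecan 4, which acts with integrins at focal adhesions. Its pools were at 13.55, 13.48 and 13.49 in control and at 13.50, 13.50 and 13.45 at 0.3 ppb. They were at 13.60, 13.54 and 13.62 at 3 ppb and at 13.34, 13.70 and 13.42 at 30 ppb. The differences were -0.03, 0.08 and -0.02 (SE 0.12 for each), and the widest of the 3 intervals' bounds were -0.29 and 0.34. The glypican gene gpc1b, whose product is tied to the membrane by a lipid anchor, differed by -0.10, -0.09 and -0.06 (SE 0.12 for each). The adaptor gene sdcbp differed by -0.14, 0.02 and -0.12 (SE 0.12 for each).

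The metalloproteinase gene mmp23bb was the member higher than control without overlap. Its control pools stood at 9.45, 9.51 and 9.59, and those at 3 ppb at 9.76, 9.62 and 9.68. The groups were close, and the difference of 0.17 (SE 0.14) had an unadjusted p of 0.24. At 0.3 ppb the pools (9.78, 9.65 and 9.51) and at 30 ppb the pools (9.61, 9.49 and 9.20) overlapped control, with differences of 0.13 and -0.08. For mmp30 the differences were -0.27, -0.10 and 0.23 (SE 0.19 for each). It lay 0.50 higher at 30 than at 0.3 ppb (SE 0.19, unadjusted p = 0.0228, adjusted p = 0.995), with overlapping pools.

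Counted over the whole set, 16 of 22 genes (72.7%) were below control at 0.3 ppb, where 49.3% of all units and 47.2% of genes with a symbol were. At 3 ppb 16 of 22 (72.7%) were below, against 52.8% and 53.4%, and at 30 ppb 17 of 22 (77.3%), against 55.3% and 62.2%. The median differences were -0.10, -0.10 and -0.06. In all, 10 genes were below control at each of the 3 doses and 2, hapln2 and itga2b, were above at each. These 2 genes were dim, with hapln2 brighter than 17.6% of units and itga2b than 11.6%. Every comparison used the same control pools. The share of all units below or above control at each dose was not counted, so neither count is read as particular to the set. Unadjusted p-values under 0.05 came from 3 genes at 0.3 ppb (13.6%, against 1.48% of all units and 1.09% of genes with a symbol) and 4 at 3 ppb (18.2%, against 3.02% and 1.92%). There were 0 such genes at 30 ppb (2.5% and 1.4%). All of these differences were below control, as in 1.02% of all units at 0.3 ppb and 0.87% at 3 ppb. At each dose the share of all units with an unadjusted p under 0.05 was itself below 0.05, the share such a cutoff gives without any difference. It is therefore a low base for the shares of the set. Adjusted over the array, 0 of the 22 genes and 0 of all units (0%) were called at each dose.

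The share of a gene's variance that lay between doses had a median of 31.8% over the set, against 17.4% over all units and 18.7% over genes with a symbol. The share is not corrected for the number of groups. With 4 groups of 3 pools, much of such a share arises without any effect of dose, so none of these medians measures such an effect. It was highest for lama1 (54.7%), itgb4 (54.2%) and itga6b (50.9%). The F-test for any difference over the 4 doses gave lama1 an unadjusted p of 0.0344 and itgb4 one of 0.048, the 2 genes under 0.05 (9.09%, against 2.44% of all units), each with an adjusted p of 1.00. For the ordered doses 1 gene, col27a1b, had an unadjusted p under 0.05 (4.55%, against 4.3% of all units), and 0 genes passed after adjustment, where 36 units (0.0969%) did.

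The intervals limit what a difference in intensity could have been. Since no background call was made, they may not carry over to the transcript for dim genes such as itga2b and hapln2. At 0.3 and 30 ppb no member's 95% interval reached a doubling or a halving. At 3 ppb the interval of 1 gene, lama1, reached a halving and none reached a doubling. The number of arrays limits this precision.

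Between doses, lama1 and fbln1 were lower at 3 than at 0.3 ppb without overlap (3.87% of all units), and sdc4 and sdcbp were higher (3.59%). The difference of fbln1 was -0.25 (SE 0.15), that of sdc4 0.10 (SE 0.12) and that of sdcbp 0.15 (SE 0.12). Between 30 and 0.3 ppb, itga6b was higher without overlap (3.79% of all units), by 0.42 (SE 0.16, unadjusted p = 0.0239). Its group mean was higher in 12 of 12 features. In that comparison 0 genes were lower (3.94%). Between 30 and 3 ppb, mmp23bb and sdcbp were lower without overlap (2.14%), by -0.25 (SE 0.14) and -0.14 (SE 0.12), and 0 genes were higher (1.46%). The difference of itgb4 between 30 and 3 ppb was 0.45 (SE 0.19, unadjusted p = 0.0377), with overlapping pools and 12 of 12 features higher. No difference between doses passed after adjustment, with 0 units called in each of the 3 comparisons (0%).

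The map of deviations shows how the pools of each dose lay across the set. A gene's own mean over the 12 pools was exceeded by 14, 16 and 15 of the 22 genes in the control pools. At 0.3 ppb it was exceeded by 10, 6 and 8 genes, and at 3 ppb by 11, 12 and 6. The 3 control pools were thus alike in this count and the 0.3 ppb pools lay below them. At 30 ppb the pools split, with 6 genes above in replicate 1 and 17 and 15 in replicates 2 and 3. Over all units the share above their own mean lay between 45.1% and 53.2% by array, and over genes with a symbol between 37.1% (30 ppb replicate 3) and 57.1% (control replicate 1). The 30 ppb values of lama1, itgav, itgb1a and col19a1 given above include replicate 1, whose part in them is shown by the values of the single pools.

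**Figure D4:**
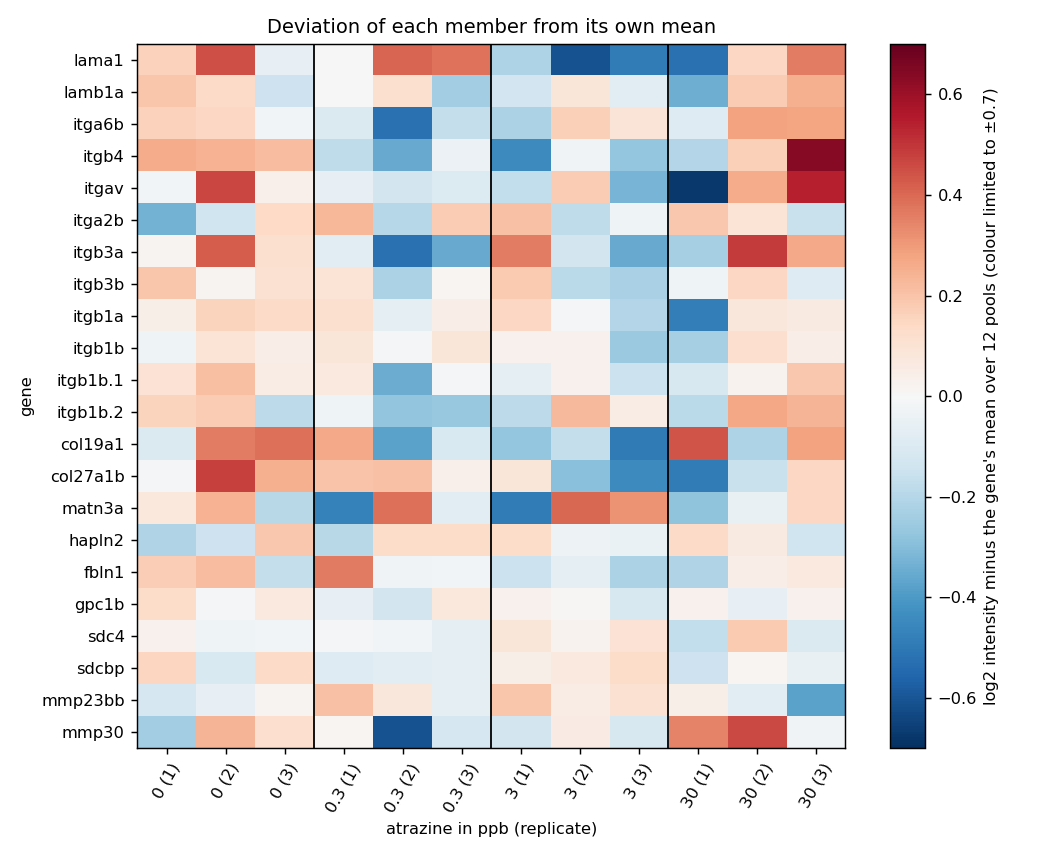
Deviation of log2 intensity from each gene's own mean over the 12 pools (colour, limited to 0.7 in either direction) for the 22 genes (rows) in each pool (columns, grouped by dose with the replicate in brackets). Control columns hold mostly values above the mean (14 to 16 of 22 genes), and 30 ppb replicate 1 holds 6, against 17 and 15 in the other 30 ppb pools.

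A list of 166 further matrix genes covered glycoproteins, collagen-modifying enzymes, heparan sulfate synthesis and the linkers between integrins and the cytoskeleton. It was written with earlier results of these data known but not picked for how the genes moved, and 28 of it were measured under a symbol. After adjustment 0 of the 28 passed at any dose. Below control were 18 of the 28 at 0.3 ppb, 16 at 3 ppb and 20 at 30 ppb, with medians of -0.05, -0.03 and -0.05. Of all units, 49.3%, 52.8% and 55.3% were below control at these doses. Of genes with a symbol, 47.2%, 53.4% and 62.2% were. The 3 genes with the lowest unadjusted p at a dose, extl3, hs3st1 and ext1b at 3 ppb, were picked by that p and are given as values. For extl3, a glycosyltransferase gene that helps to start the heparan sulfate chain, the pools at 9.42, 9.82 and 9.56 lay below all controls at 9.89, 10.09 and 10.04 (difference -0.41, SE 0.15, unadjusted p = 0.0185). For ext1b, of the enzyme that extends the chain, the pools at 10.37, 9.91 and 9.98 overlapped controls at 10.54, 10.37 and 10.36 (-0.34, SE 0.17, unadjusted p = 0.0629). For hs3st1, a sulfotransferase gene, the 3 ppb pools at 7.65, 7.21 and 7.57 overlapped controls at 6.77, 7.02 and 7.43 (0.40, SE 0.17, unadjusted p = 0.0338). Each had an adjusted p of 1.00. Of the same list and dose, the related genes ext1c (0.04, SE 0.13) and hs2st1a (-0.08, SE 0.13) lay close to control, and the 3 picked genes did not share a direction.

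Markers of the tissues that make matrix were few on the array. Of the listed markers outside the set, the 4 skeletal muscle genes were below control at each dose, with medians of -0.17, -0.07 and -0.17 and 0 past the threshold. Of these, mybpc1, of a myosin-binding protein, was at 10.45, 10.39 and 10.43 in control and at 10.14, 9.79 and 9.91 at 0.3 ppb. All treated pools were lower, by -0.48 (SE 0.14, unadjusted p = 0.0055, limma adjusted p = 1.00), close in size to itgb3a and itgb4 at that dose. At 3 and 30 ppb mybpc1 overlapped control, with -0.07 and -0.16. Another of the muscle genes, mybpc2b, lay below control without overlap at 3 ppb, by -0.31 (SE 0.24, unadjusted p = 0.226). At 0.3 and 30 ppb mybpc2b overlapped control, with -0.21 and -0.31. The muscle genes acta1b and mylpfb overlapped control at each dose. The 3 endothelial genes had medians of 0.07, 0.01 and 0.09, the notochord gene cav1 differed by -0.08, 0.10 and 0.01, and the mesenchymal gene twist2 by 0.06, -0.07 and -0.21. No listed cartilage marker was measured under a symbol outside the set. The part of tissue proportions in the values of the 22 genes was not tested.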

How the data were processed

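RNA of 12 pools was read on single-colour arrays, and the number of arrays limits the precision. Per the labels and the submitters' processing notes, the authors deposited fluorescence intensities processed with RMA, for which these sources name no version. The deposited matrix held linear intensity values from 18.0 to 65226 for 385000 features, with array medians of 529 to 530, not summarised to transcripts. Background correction and slides are not given, so no background call was made. The plan had assumed log2 values, so log2 was taken first. Platform symbols, and accessions through RefSeq's GRCz12tu table, named 30725 features. Features of 1 symbol, or of 1 unnamed target, were averaged into 37144 units. Dim units stayed in the tests.

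Group means, with an F-test over them, were fitted to the 12 arrays, and a slope over dose rank was fitted separately. Both fits used R 4.3.3 with limma 3.58.1 (two-sided moderated tests), with Benjamini-Hochberg adjustment over all units and a threshold of 0.05. The group-mean fit was also run on simulated data. Their noise was drawn separately for each unit and array, so they lack the shared deviations of some of these pools. Python 3.11.15, numpy 2.4.6, pandas 2.3.3 and matplotlib 3.10.9 were used for reading and plotting. The members and lists were chosen with earlier results of these data known. Values in every pool are given for members whose treated pools did not overlap control (up to 3 per dose and direction, by p), the 3 with the lowest p of the slope and the brightest. Those of itgav and itgb1b.1 were added after their values were seen, as were some of lamb1a. Alternatives were other feature summaries, normalizations, a filter on dim units, array weights, another spread estimate, dose codings, a replicate block, a probe-position gradient and leaving out each pool. Leaving out 1 feature of col19a1 was chosen after seeing the data. No sequence is shown, since no sequence table was used here.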

Additional observations from a re-analysis of the deposited data

How the results depend on the processing

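Recomputed were 7 dose differences and 3 slopes of 8 members, under 22 alternatives for the differences and 24 for the slopes, and all of these kept their sign; other members' values were not recomputed. With array quality weights, 3 members passed at 3 ppb (lama1, itgb4 and col27a1b), 6 in the F-test over the 4 doses (these 3, itgb3a, itgb3b and mmp30) and 6 between 30 and 3 ppb (lama1, itgb4, itgb3a, itgb3b, itgb1b and mmp30), all higher at 30 ppb. The same fits called 3.21%, 5.52% and 5.96% of all units. The weights ranged from 0.285 for 3 ppb replicate 1 to 9.92 for 3 ppb replicate 3, so 1 pool dominated 3 ppb. At 30 ppb replicate 2 had 4.82, against 0.400 and 0.554 for replicates 1 and 3. The weighted calls between 30 and 3 ppb thus rested largely on 1 pool per dose. The fit of the weights gave a convergence warning. In all other settings 0 members passed in any comparison. With the weights lama1 differed by -0.70 at 3 ppb (limma adjusted p = 0.0177) and itgb4 by -0.50 (adjusted p = 0.0337). Over the other settings that kept all pools, their adjusted p lay between 0.705 and 1.00. With the median of features in place of the mean, unadjusted p was 0.152 for lama1 at 3 ppb, and for itgb4 0.248 at 0.3 ppb and 0.097 at 3 ppb.

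Leaving out each pool in turn gave 0 members in every comparison. The difference at 0.3 ppb then ranged from -0.50 to -0.35 for itgb4, from -0.44 to -0.23 for itga6b and from -0.62 to -0.38 for itgb3a, and their unadjusted p was under 0.05 in 5, 4 and 6 of 12 fits. At 3 ppb the ranges were -0.74 to -0.49 for lama1, -0.60 to -0.39 for itgb4 and -0.68 to -0.43 for col19a1, under 0.05 in 10, 8 and 9 fits. In these counts, the fits without a pool of a dose not compared changed only the spread estimate and not the difference. The slope of col27a1b ranged from -0.21 to -0.13.

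With array weights, counts over all units were 1193 at 3 ppb, 354 at 30 ppb, 190 for the slope, 2051 in the F-test, and 17, 61 and 2212 for 3 against 0.3, 30 against 0.3 and 30 against 3 ppb. With the median of features they were 3, 2, 14, 4 and, for 30 against 0.3 ppb, 1. The gradient covariate gave 12 at 3 ppb, 8 at 30 ppb, 57, 18 and 1 in the same order. For the slope, 36 units became 10 with quantile normalization, 11 without dim units and 0 with dose in ppb. In the F-test, 0 became 3 with cyclic loess, 2 without dim units and 3 with the trended robust spread. With a pool left out, counts lay between 0 and 4 at 30 ppb, 0 and 58 for the slope (58 without 3 ppb replicate 1, 23 without 0.3 ppb replicate 3, and 0 to 5 without any one of control replicates 2 and 3, 0.3 ppb replicate 2, 3 ppb replicates 2 and 3 and 30 ppb replicates 2 and 3), 0 and 5 in the F-test and 0 and 1 for 30 against 0.3 ppb. The causes were not tested.

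Replicate numbers are shared by all doses, but 9 of 18 same-numbered pairs had a correlation of deviations over 0.1 (range -0.37 to 0.68), so not every pair met the condition for pairing. Some did deviate together: replicates 1 at 0.3, 3 and 30 ppb correlated at 0.43 to 0.52 and replicates 2 at 0, 0.3 and 3 ppb at 0.64 to 0.68. Not every pool correlated best with its own number, since 3 ppb replicate 1 correlated at 0.59 with control replicate 3. With the replicate block 0 members passed, and units called were 1 at 30 ppb, 4 in the F-test and 3 for 30 against 0.3 ppb.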
